A study of Rattus norvegicus with 24 samples.

Results

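The apical portion of the spiral ganglion of deafened rats was compared between postnatal day 60 (P60) and postnatal day 32 (P32), with 3 P60 deaf apex samples set against 3 P32 deaf apex samples, 6 of the 24 samples of the series. The items compared were the 5745 genes that could be named among the 14138 transcripts of the whole-series table, and where a gene had more than 1 transcript the brightest by mean intensity was kept. Both groups were Sprague-Dawley rats of both sexes that had received kanamycin at 400 mg/kg by intraperitoneal injection each day between P8 and P16. The groups shared the treatment and differed in age and in time since the last dose, which cannot be told apart within the deaf rats. The hearing rats used beside them, also taken at P60 and P32, were littermates without injections. Each replicate is a pool of 4 to 6 ganglia, freed of bony capsule, spiral ligament and organ of Corti and split into an apical and a basal portion. The pool holds neurons, glia, vessels, immune cells and any remnant of bone or blood, so fewer cells of a type and less RNA per cell cannot be told apart. The samples are labelled as biological replicates and no source used here names the animals behind each pool, so p-values measure the spread between pools.

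Kanamycin is an aminoglycoside antibiotic that kills hair cells, the sensory cells that drive spiral ganglion neurons. These neurons carry sound signals from the hair cells to the brainstem, and after hair cells die they lose their synaptic input and part of their trophic supply and degenerate over the following weeks and months. Injured peripheral neurons are known to switch on a set of regeneration genes led by the transcription factor Atf3, and macrophages gather in the ganglion of a deafened cochlea. Around the ganglion lies the bone of the modiolus, whose marrow and matrix mature over the same weeks of postnatal life.

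Values are log2 of intensities that the authors had normalized with RMA, from arrays with 1 dye. Over all 24 samples the median intensity ran from 1997.4 to 2262.6, and precision depends on the number of arrays. Replicate 1 of each group is on a platform that holds 8 samples, and replicates 2 and 3 are on another that holds 16. The correlation over transcripts between P60 and P32 samples of one number was 0.978 for replicate 1, 0.878 for replicate 2 and 0.968 for replicate 3. It was 0.892 to 0.908 among the P60 samples and 0.795 to 0.877 among the P32 samples, so pairs 1 and 3 were more alike than samples of one age, and pair 2 was not. P32 replicate 2 held the low end of the P32 range, at 0.795 with replicate 1 and 0.834 with replicate 3. Outside these 6 samples, P32 hearing apex replicate 1 stood apart, with log2 levels of Ucn2 at 9.81, against 6.22 and 6.25 in the other P32 hearing apex samples. It enters the comparison only through the pooled spread and the platform term, and results that rest on it are also given without it. The tissue carried the markers of its label. The log2 level of the neurofilament gene Nefl was 13.53 to 13.99 at P60 and 12.63 to 14.01 at P32, and that of Sox10, a transcription factor of Schwann cells and other glia, was 9.25 to 10.49 at P60 and 8.5 to 10.69 at P32. Slc26a5, which encodes the outer hair cell motor protein prestin, lay at 4.32 to 5.47 at P60 and 3.89 to 5.48 at P32, below the 95th percentile of 1178 olfactory and vomeronasal receptor transcripts, 5.96, a dim-end measure chosen after the data were seen.

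With limma on all 24 samples, 0 of 5745 genes (0%) passed an adjusted p of 0.05 between P60 and P32 deaf apex. The smallest adjusted p was 0.257. At an unadjusted p under 0.05 there were 74 genes (1.29%), 35 higher at P60 (0.609%) and 39 lower (0.679%). If no gene differed and the p-values were calibrated, a share of 0.05 would lie under this threshold, more than was seen. The count of 74 became 143 without P32 replicate 3 and 122 without P60 replicate 1. It was 40 with no platform term and 49 with a random block for apex and base of one number. With the replicate number as a block, 0 genes passed and 213 were at an unadjusted p under 0.05 (3.71%), and Car3 had the smallest adjusted p, 0.0601. Without P32 hearing apex replicate 1 in the fit, 2 genes passed, Alox15 and Gpr83, and their values are given below. With array weights, which let limma count some arrays for less, 41 genes passed. The estimation of these weights did not reach convergence. They were 12.97, 0.37 and 0.81 for P60 deaf apex replicates 1, 2 and 3, and 2.88, 0.28 and 0.71 for those of P32. The spread sets what could be seen: the median SE of a log2 difference was 0.37, and it was 0.2 at the 10th and 0.68 at the 90th percentile of genes. Over all genes the differences were centred at 0.06, with -0.5 at the 5th and 0.62 at the 95th percentile, and 3431 genes (59.7%) were above 0. The groups did not overlap for 69 genes that were higher at P60 (1.2%) and 71 that were lower (1.24%). In all 3 same-numbered pairs 742 genes were higher at P60 (12.9%) and 568 were lower (9.89%). Each gene below is therefore described by its values, and none is called changed in the fit of all samples.

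**Figure D1:**
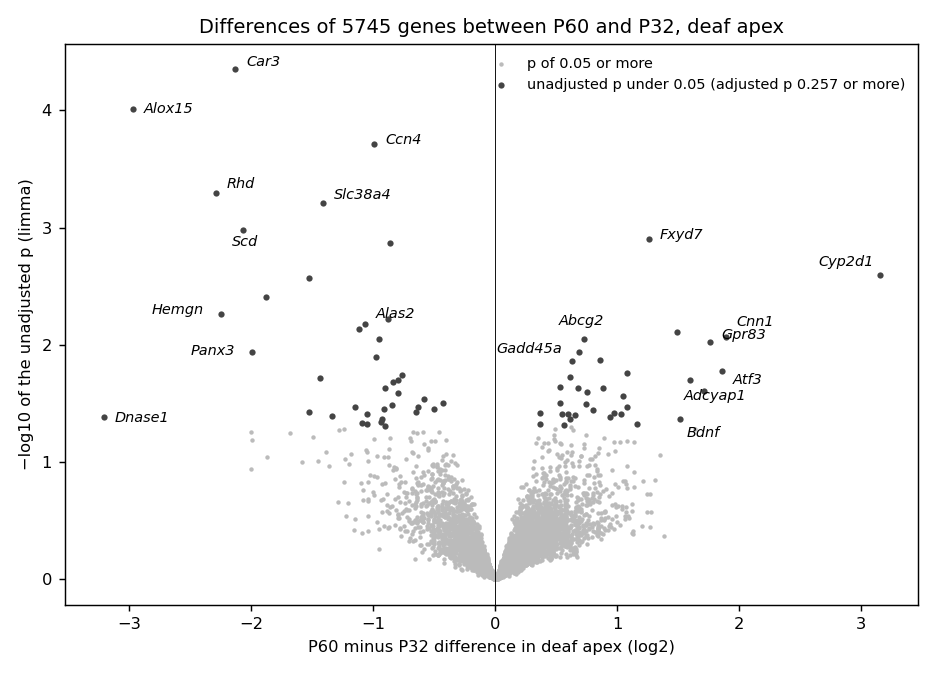
Each point is 1 of 5745 genes, with the P60 minus P32 log2 difference in deaf apex on the horizontal axis and the negative log10 of limma's unadjusted p on the vertical axis; dark points have a p under 0.05. No gene passed adjustment (smallest adjusted p 0.257), and the low end of p holds genes lower at P60, with Car3, Alox15, Ccn4 and Rhd at the top of the plot.

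The smallest p-values belonged to genes that were lower at P60. Car3, a carbonic anhydrase best known from muscle and fat, had log2 levels of 7.93, 9.34 and 10.08 in the P60 samples, against 9.98, 12.05 and 11.71 in the P32 samples. P60 was lower in each of the 3 numbered pairs, although the groups overlapped between P60 replicate 3 and P32 replicate 1. The log2 difference was -2.13 ± 0.4 (SE, 3 pools a group), 4.38-fold lower at P60 (adjusted p 0.257, limma).

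Alox15 encodes a lipoxygenase that oxidizes arachidonic and linoleic acid and is abundant in reticulocytes and eosinophils. Its log2 levels were 8.47, 9.32 and 9.57 in the P60 samples, against 11.33, 12.25 and 12.7 in the P32 samples. The groups did not overlap, and the nearest values, 9.57 and 11.33, were further apart than the range within either group. The difference was -2.97 ± 0.59, 7.84-fold lower at P60 (adjusted p 0.28, limma), and it passed without P32 hearing apex replicate 1 (-2.97 ± 0.36, adjusted p 0.00166). That sample's Alox15 level was 8.27, against 11.79 and 12.63 in its group, so leaving it out lowered the pooled spread. The same gene was the single one of 5745 (0.0174%) called between P60 and P32 in the deaf base, at -3.67 ± 0.59 with adjusted p 0.0479 in limma. The deaf apex minus deaf base difference of these, 0.7 ± 0.84, was smaller than its SE (adjusted p 0.999).

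Ccn4, a matricellular protein of the CCN family that responds to Wnt signals and is made by bone-forming cells, had log2 levels of 9.51, 10.87 and 11.4 at P60 and of 10.48, 12.05 and 12.22 at P32. The groups overlapped, while the 3 pairs differed by a like amount, -0.97, -1.18 and -0.82. The difference was -0.99 ± 0.21 (adjusted p 0.373). Slc38a4, a system A amino acid transporter, had log2 levels of 8.72, 7.29 and 8.37 at P60, against 9.27, 9.7 and 9.64 at P32. All P60 samples were below all P32 samples, with the largest gap in replicate 2, and the difference was -1.41 ± 0.34 (adjusted p 0.708). The epithelial membrane genes Upk1b, a tetraspanin of the urothelial plaque, and Cldn9, a tight junction claudin of the inner ear epithelium, did not overlap either, at -1.53 ± 0.44 and -1.88 ± 0.57 (adjusted p 0.999 for both in limma). Tent5c, a poly(A) polymerase, was at -0.86 ± 0.23, the exchanger gene Slc24a2 at -0.88 ± 0.28, F13a1, the A subunit of coagulation factor XIII made by macrophages and platelets, at -1.12 ± 0.37 and the gap junction gene Gjc3 at -0.95 ± 0.32. All 4 had overlapping groups. The lowest difference of all 5745 genes was that of Dnase1, a secreted nuclease, at -3.21 ± 1.46, which was chosen after its values were seen. It had log2 levels of 8.65, 7.39 and 9.85 at P60 and of 12.42, 13.63 and 9.47 at P32, so that P32 replicate 3 lay below 1 of the P60 samples.

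Scd, the desaturase that makes monounsaturated fatty acids, had the smallest p in the list of cholesterol and fatty acid synthesis. Its log2 levels were 8.39, 8.5 and 9.0 in the P60 samples, against 10.15, 10.85 and 11.11 in the P32 samples, and the groups did not overlap. The difference was -2.07 ± 0.53, 4.21-fold lower at P60 (adjusted p 0.966, limma). Of the 35 tested genes of cholesterol and fatty acid synthesis, 0 passed in either direction, 2 were lower at an unadjusted p under 0.05 (Scd and Aacs) and 0 were higher, and 22 were below 0. The list's median was -0.12, against 0.06 over all genes, of which 0.679% were lower and 0.609% higher at this p and 59.7% were above 0. Aacs, the acetoacetyl-CoA synthetase that feeds ketone bodies into lipid synthesis, was at -0.98 ± 0.35 with overlapping groups, and Hsd17b7, an enzyme of cholesterol synthesis, at -0.7 ± 0.35.

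**Figure D2:**
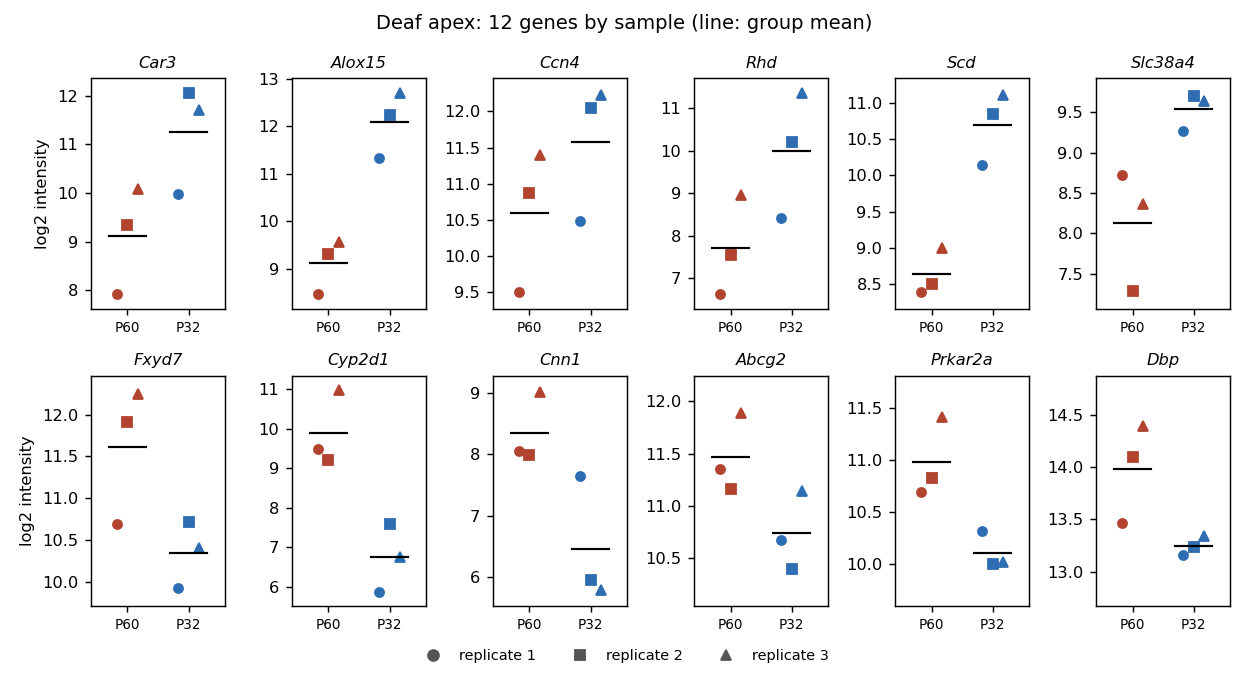
Log2 intensity of 12 genes in the 3 P60 deaf apex samples (left, red) and the 3 P32 deaf apex samples (right, blue), with symbols for replicate number and a line at the group mean; each panel has its own axis. In the upper row all P60 means are below the P32 means and Alox15, Scd and Slc38a4 do not overlap, and in the lower row all P60 means are above and Fxyd7 is the gene with overlap.

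Genes of red blood cells and their precursors had lower values at P60, and none passed the test. Rhd, the Rh blood group protein of the erythrocyte membrane, had log2 levels of 6.62, 7.55 and 8.95 at P60, against 8.42, 10.21 and 11.36 at P32. The pair differences were -1.8, -2.66 and -2.41, and the groups overlapped between P60 replicate 3 and P32 replicate 1. The difference was -2.29 ± 0.54, 4.89-fold lower (adjusted p 0.708, limma). Alas2, the erythroid enzyme that starts haem synthesis, had log2 levels of 11.42, 12.13 and 11.98 at P60 and of 12.46, 12.71 and 13.57 at P32. Its groups did not overlap, and the difference was -1.07 ± 0.35. The promoters of these 2 genes are shown because they are the members of the list whose promoter holds AGATAA, a form of the motif bound by GATA factors, which drive erythroid genes. They run from 250 bases before to 50 bases after the start in RefSeq, build GRCr8, 5′ to 3′ on the plus strand, with the motif in capitals. Rhd is at chr5:152370950-152371249 and Alas2 at chrX:22895200-22895499.
Rhd: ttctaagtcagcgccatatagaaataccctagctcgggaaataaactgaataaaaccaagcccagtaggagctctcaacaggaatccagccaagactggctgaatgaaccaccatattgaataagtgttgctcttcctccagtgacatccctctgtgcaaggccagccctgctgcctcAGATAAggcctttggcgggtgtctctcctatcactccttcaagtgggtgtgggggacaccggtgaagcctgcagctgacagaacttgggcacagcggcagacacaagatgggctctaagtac
Alas2: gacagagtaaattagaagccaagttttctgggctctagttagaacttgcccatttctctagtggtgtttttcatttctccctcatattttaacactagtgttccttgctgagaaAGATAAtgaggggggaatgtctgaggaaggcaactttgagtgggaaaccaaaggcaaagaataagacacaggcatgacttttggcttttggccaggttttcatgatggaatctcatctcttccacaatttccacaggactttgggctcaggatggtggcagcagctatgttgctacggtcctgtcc
Searched on both strands, AGATAA was in 3877 of the 33469 RefSeq promoters of this length (11.6%) and in 2 of the 6 found for red cell genes, which is a description and no test. Other forms of the motif were not searched for, so the other promoters may hold a site for GATA factors. In Rhd AGATAA starts at base 179 and in Alas2 at base 115 of the printed sequence.

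Of the 7 red blood cell genes tested, 0 passed in either direction, 3 were lower at an unadjusted p under 0.05 and 0 were higher, and 6 were below 0, with a median of -0.41. Over all genes 0.679% were lower and 0.609% higher at this p, 59.7% were above 0 and the median was 0.06. The third with such a p was Hbb-b1, a beta globin, with log2 levels of 12.85, 13.19 and 13.74 at P60 and of 13.64, 14.64 and 14.65 at P32, with overlap and a difference of -1.05 ± 0.47. The pairs had list medians of -0.3, -0.58 and -0.25. The globins Hbb and Hba-a2 were at -0.22 ± 0.15 and -0.12 ± 0.16, and Bpgm, the red cell phosphoglycerate mutase, was at 0.0 ± 0.14. Globin probes can take signal from near-identical copies, so those values are uncertain. The log2 of the summed intensity of the 7 genes was 16.65, 16.88 and 16.96 at P60, against 16.91, 17.16 and 17.33 at P32, with overlap. Hemgn, an erythroid nuclear factor outside the list, had log2 levels of 8.42, 7.0 and 7.54 at P60, against 10.56, 8.9 and 10.24 at P32, with no overlap and a difference of -2.25 ± 0.71 (adjusted p 0.999). Whether the amount of blood or marrow in the pools bears on these values was not tested.

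Granule genes of marrow cells varied more between pairs. Prg2, the major basic protein of eosinophils, had log2 levels of 9.31, 8.07 and 8.63 at P60 and of 10, 9.86 and 10.74 at P32, with no overlap and a difference of -1.53 ± 0.68. The rat neutrophil defensin gene Np4 did not overlap either, at 5.7, 6.07 and 6.75 at P60 against 7.64, 7.1 and 8.5 at P32 (-1.58 ± 0.91). The mast cell protease gene Mcpt8 was at -1.99 ± 1.01 and S100a8, a calcium-binding protein of neutrophils, at -0.97 ± 0.95, both with overlap. The lowest P60 levels of Np4, 5.7, and of Mcpt8, 5.1, lay below the dim-end level of 5.96, so both sizes are uncertain. Chi3l1, a chitinase-like protein of neutrophils and macrophages, was on the other side at 0.73 ± 0.38 with no overlap. Of the 10 tested neutrophil and mast cell genes 0 passed, 1 was lower at an unadjusted p under 0.05, 8 were below 0 and the median was -0.7, while the pair medians of -0.58, 0.33 and -1.37 had no common sign. The median was -1.31 without P32 replicate 2 and -0.12 without P32 replicate 3, and over all genes 0.679% were lower at this p and 59.7% were above 0.

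Bone and cartilage genes also had lower values at P60, and none passed the test. Ibsp, the bone sialoprotein that mineralizing osteoblasts secrete, had log2 levels of 12.73, 12.86 and 12.68 at P60, against 14.12, 13.05 and 13.49 at P32. The groups did not overlap, though P32 replicate 2 was close to the P60 samples, and the difference was -0.8 ± 0.31. Bglap, osteocalcin, had log2 levels of 10.42, 12.54 and 13.51 at P60, against 12.43, 12.91 and 14.4 at P32, with overlap and a difference of -1.09 ± 0.51. Panx3, a channel protein of osteoblasts and chondrocytes outside the list, had log2 levels of 6.07, 7.27 and 7.81 at P60, against 9.08, 7.89 and 10.14 at P32. It did not overlap, and the difference was -1.99 ± 0.71. Of the 18 bone and cartilage genes tested, 0 passed, 2 were lower at an unadjusted p under 0.05 and 0 were higher, 15 were below 0 and the median was -0.32, with pair medians of -0.52, -0.21 and -0.49. The shares over all genes were 0.679% lower and 0.609% higher at this p, and 59.7% above 0. Col2a1, the collagen of cartilage, was at -0.53 ± 0.27. The log2 of the summed intensity of the list was 17.18, 17.47 and 17.28 at P60, against 17.71, 17.61 and 17.68 at P32, with no overlap. How far the dissected bone differs between pools was not tested. Of the fibroblast and extracellular matrix genes (23 tested, median -0.05), Fbn2, a fibrillin of developing microfibrils, did not overlap, at -1.34 ± 0.61, and Fbn1 was at -1.18 ± 0.65.

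**Figure D3:**
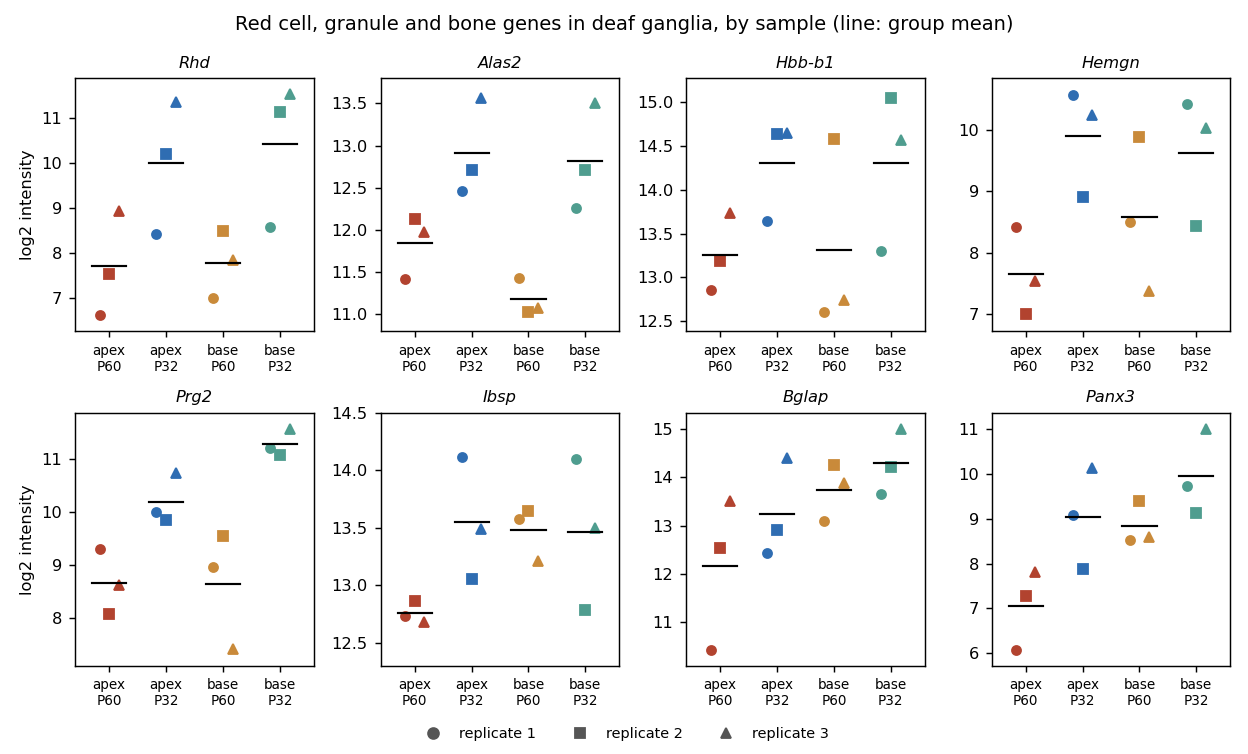
Log2 intensity of red cell genes (Rhd, Alas2, Hbb-b1, Hemgn), the eosinophil gene Prg2 and bone genes (Ibsp, Bglap, Panx3) in deaf apex and deaf base at P60 (left of each pair) and P32, with symbols for replicate number and a line at the group mean. In the apex all 8 P60 means are below the P32 means, and in the base Rhd, Alas2 and Prg2 are without overlap while Ibsp overlaps with like means.

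Rhd and Alas2 also had lower values at P60 in deaf base and in hearing apex. Rhd had age differences of -2.64 ± 0.54 in deaf base and of -2.21 ± 0.54 in hearing apex, and Alas2 had -1.65 ± 0.35 and -1.24 ± 0.35. The red cell list had a median of -0.46 in deaf base and of -0.28 in hearing apex, and the bone list of -0.31 and -0.44. Ibsp was at -0.8 in deaf apex and at 0.02 in deaf base, a difference of -0.82 ± 0.44 (adjusted p 0.999, limma). Alox15, Car3 and Ccn4 were also lower at P60 in hearing apex, at -2.1 ± 0.59, -1.98 ± 0.4 and -0.87 ± 0.21. Without P32 hearing apex replicate 1 they were at -3.18, -1.93 and -0.86. In deaf base Car3 was at -1.67 and Ccn4 at -0.71. Cldn9, Upk1b and Tent5c were at -1.62, -1.41 and -1.05 in hearing apex. Slc38a4 and Scd were at -0.08 and -0.39 there, and Slc24a2, F13a1 and Gjc3 at 0.17, 0.15 and 0.16. The protocol divided each cochlea into both portions, so deaf base may share animals with deaf apex and is not an independent repeat.

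Among genes higher at P60, Cyp2d1 had the largest difference. This cytochrome P450 had log2 levels of 9.5, 9.21 and 10.99 in the P60 samples, against 5.88, 7.6 and 6.76 in the P32 samples, with no overlap. The difference was 3.15 ± 0.9, 8.89-fold higher (adjusted p 0.999, limma), and in deaf base it was 3.33 ± 0.9. In deaf apex P32 replicate 1, at 5.88, lay below the dim-end level of 5.96, so the size there is uncertain. Members of the Cyp2d family are near-identical in sequence, so which copy the probes read is uncertain. Fxyd7, a brain and neuronal regulator of the sodium-potassium pump, had the smallest p of genes higher at P60. Its log2 levels were 10.69, 11.91 and 12.25 at P60 and 9.93, 10.71 and 10.41 at P32, with overlap of P60 replicate 1 and P32 replicate 2, and the difference was 1.26 ± 0.33 (adjusted p 0.966). Abcg2, an efflux transporter of vessel walls, had log2 levels of 11.35, 11.16 and 11.89 at P60 and of 10.67, 10.4 and 11.14 at P32. The groups came close without overlap, the pairs differed by 0.69, 0.76 and 0.75, and the difference was 0.73 ± 0.25.

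Of the other genes named for a small p, the olfactory receptor family gene Or51e1 (1.49 ± 0.5) and Prkar2a, a regulatory subunit of protein kinase A (0.86 ± 0.31), did not overlap. Cand2, a regulator of cullin ligases (0.63 ± 0.23), Adamtsl4, a matrix protein (1.08 ± 0.41), Fads3, a fatty acid desaturase (0.61 ± 0.24), Sfpq, a splicing factor (0.53 ± 0.21), and Apom, an apolipoprotein that carries sphingosine-1-phosphate (0.88 ± 0.35), were higher at P60 in all 3 pairs with overlapping groups. The smooth muscle gene Cnn1, calponin, had log2 levels of 8.05, 7.98 and 9.02 at P60 and of 7.64, 5.95 and 5.79 at P32, with no overlap and a difference of 1.89 ± 0.64. P32 replicates 2 and 3 of Cnn1 lay below the dim-end level of 5.96, so that size is uncertain. Des, the muscle intermediate filament that pericytes also hold, did not overlap, at 0.97 ± 0.43, and Tagln, another smooth muscle gene, was at 0.32 ± 0.22. Of the 20 tested endothelial and pericyte genes 0 passed, 2 were higher at an unadjusted p under 0.05 (Cnn1 and Des), 15 were above 0 and the median was 0.25, with pair medians of -0.11, 0.47 and 0.35. This stands beside 0.609% higher at this p and 59.7% above 0 over all genes, and the median was 0.1 without P60 replicate 2 and 0.47 without P60 replicate 1.

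Among genes of the neuronal injury response none passed, and the 4 members with the smallest p were higher at P60. Atf3, the stress transcription factor that marks injured sensory neurons, had log2 levels of 10.69, 11.24 and 10.12 in the P60 samples, against 8.28, 9.76 and 8.43 in the P32 samples. The groups did not overlap, and the difference was 1.86 ± 0.7, 3.62-fold higher (adjusted p 0.999, limma). Gpr83, a G protein-coupled receptor, had log2 levels of 9.57, 10.02 and 9.8 at P60 and of 7.32, 8.31 and 8.49 at P32. The P60 samples lay within a narrow band above all P32 samples, and the difference was 1.76 ± 0.6 (adjusted p 0.999). Without P32 hearing apex replicate 1 the same difference had an SE of 0.28 and passed (adjusted p 0.0228, limma). That sample was singled out by its values, and its Gpr83 level was 8.02, against 5.18 and 4.47 in its group. Leaving it out lowered the pooled spread, so this pass is no independent support. Gadd45a, a growth arrest gene that responds to DNA damage and nerve injury, had log2 levels of 14.6, 14.3 and 14.1 at P60 and of 13.92, 13.25 and 13.75 at P32, with no overlap and a difference of 0.69 ± 0.25.

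Adcyap1 encodes the neuropeptide PACAP, which injured sensory neurons are known to make. It had log2 levels of 9.64, 10.59 and 10.17 at P60, against 8.04, 7.86 and 9.7 at P32, where replicate 3 exceeded the lowest P60 sample, and the difference was 1.6 ± 0.63. Ucn2, a peptide of the corticotropin-releasing hormone family, had log2 levels of 11.26, 11.48 and 11.92 at P60, against 9.42, 11.19 and 10.43 at P32, with no overlap and a difference of 1.21 ± 0.79. Its SE was 0.43 without P32 hearing apex replicate 1 (adjusted p 0.999). Hspb1, a small heat shock protein that supports axon survival, was at 0.69 ± 0.41, Gap43, the growth cone protein, at 0.5 ± 0.56 and Stmn2, a microtubule regulator of growing axons, at 0.22 ± 0.22, all with overlap. Against the list's direction stood Ankrd1, an ankyrin repeat protein that stress induces in muscle, at -0.8 ± 0.33 with no overlap (adjusted p 0.999).

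Of the 20 tested nerve injury and regeneration genes, 0 passed in either direction, 4 were higher at an unadjusted p under 0.05 and 1 was lower, against 0.609% and 0.679% over all genes. The list had 16 members above 0 and a median of 0.28, against 0.06 over all genes, with pair medians of 0.28, 0.22 and 0.31. Over all genes 59.7% were above 0. Groups did not overlap for 4 members higher at P60 and 1 lower, against 1.2% and 1.24% over all genes. The list was chosen with earlier results of these data known, so these counts describe it and test nothing. The median stayed between 0.13 and 0.41 under the alternative settings. The log2 of the summed intensity was 16.41, 16.53 and 16.43 at P60, against 16.16, 15.95 and 16.15 at P32, with no overlap.

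**Figure D4:**
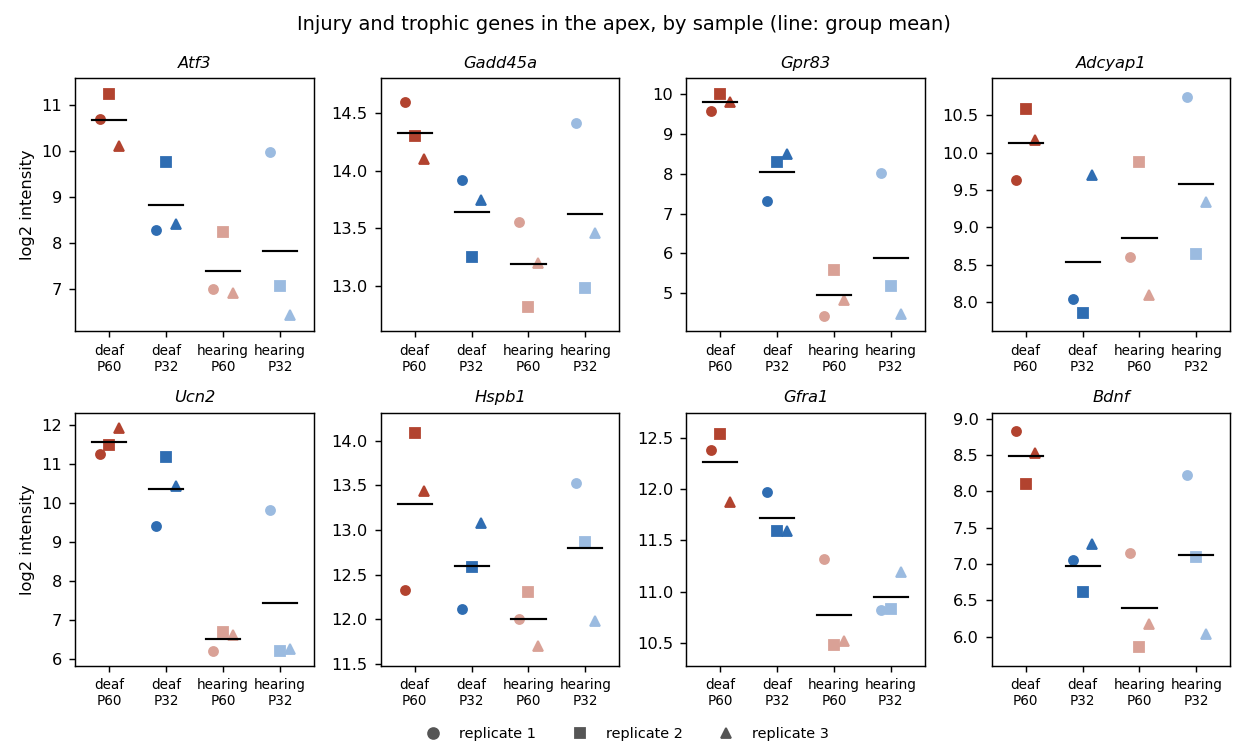
Log2 intensity of 8 injury and trophic genes in the apex, for deaf rats (left pair of each panel) and hearing rats (right pair) with P60 left of P32, symbols for replicate number and a line at the group mean. Atf3, Gadd45a, Gpr83, Ucn2 and Bdnf have all deaf P60 samples above all deaf P32 samples. P32 hearing replicate 1 lies above the other hearing samples in every panel but Gfra1.

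Neurotrophins keep spiral ganglion neurons alive through Trk receptors. Bdnf, a neurotrophin of hair cells and of stressed neurons, had log2 levels of 8.83, 8.1 and 8.53 at P60, against 7.05, 6.61 and 7.27 at P32. The groups did not overlap, the pairs differed by 1.77, 1.48 and 1.26, and the difference was 1.51 ± 0.69, 2.84-fold higher (adjusted p 0.999). Ntf3, the other neurotrophin of the cochlea, had log2 levels of 8.38, 8.06 and 9.02 at P60 and of 7.93, 7.58 and 7.62 at P32, with no overlap and a difference of 0.77 ± 0.54. Gfra1, a co-receptor for glial cell line-derived factor that injured neurons raise, had log2 levels of 12.38, 12.54 and 11.87 at P60 and of 11.97, 11.59 and 11.59 at P32, with overlap and a difference of 0.55 ± 0.25. Of the 26 tested neurotrophic factors and receptors 0 passed, 2 were higher (Bdnf and Gfra1) and 0 lower at an unadjusted p under 0.05, 14 were above 0 and the median was 0.11. Over all genes 0.609% were higher at this p and 59.7% were above 0, a larger share than in the list. The median was 0 without P32 replicate 3 and -0.03 without P60 replicate 2.

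Immediate early genes, which respond within minutes to activity or handling, had the highest list median. Of 19 tested 0 passed, 1 (Atf3, which is also an injury gene) had an unadjusted p under 0.05, 18 were above 0 and the median was 0.45, which was -0.21 with array weights. The pairs did not share it, at -0.3, 1.18 and 0.31, and replicate 2 carried the high value. Without P60 replicate 2 the median was 0.1. Fos was at 0.63 ± 0.37 and Fosl2 at 0.62 ± 0.32 with overlap, and Junb was at 1.14 ± 0.78 without overlap. Dbp, an output gene of the circadian clock, had log2 levels of 13.47, 14.1 and 14.39 at P60, against 13.16, 13.24 and 13.34 at P32, with no overlap and a difference of 0.74 ± 0.32. The clock list (11 tested) had 1 gene at an unadjusted p under 0.05, 9 above 0 and a median of 0.22, with pair medians of -0.13, 0.68 and 0.13, and -0.2 without P60 replicate 2. Both lists stand beside 0.609% higher at this p and 59.7% above 0 over all genes. The labels do not give the hour of dissection, and its part in these values was not tested.

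The neurons' own genes were close to the middle of all genes. Of 30 tested genes of spiral ganglion neuron identity 0 passed and 0 reached an unadjusted p under 0.05, 21 were above 0 and the median was 0.15. Over all genes 1.29% reached this p, 59.7% were above 0 and the median was 0.06. The pair medians of the neuron list, -0.2, 0.23 and 0.29, had no common sign, and its median was -0.16 without P32 replicate 3. Nefl was at 0.4 ± 0.25 and Nefh, the heavy neurofilament, at 0.46 ± 0.85. Calb1, a calcium buffer, had log2 levels of 12.08, 9.18 and 8.67 at P60 and of 8.69, 7.38 and 8.94 at P32, so that its difference of 1.64 ± 0.79 rested on replicates 1 and 2. Synaptic release genes (23 tested) had a median of 0.1, voltage-gated channels (24) of 0.04, transmitter receptors and postsynaptic genes (19) of -0.1, adhesion genes (20) of 0.01 and developmental neurite genes (23) of -0.08. None of these lists held a gene at an unadjusted p under 0.05. The adhesion molecule Nrcam did not overlap, at 0.38 ± 0.23, and Nrp1, a semaphorin co-receptor, was at -1.49 ± 0.75.

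Glial lists lay near 0. Schwann cell myelin genes (21 tested) had a median of -0.03 with 10 above 0, and genes of repair Schwann cells and satellite glia (19) of -0.03 with 9 above 0. Over all genes 59.7% were above 0. Btc, a growth factor of injured Schwann cells, did not overlap, with log2 levels of 9.39, 9.84 and 8.73 at P60 against 8.45, 7.75 and 8.7 at P32 (1.02 ± 0.52). Genes of astrocytes and of oligodendrocytes, which wrap the nerve near the brainstem, had a median of -0.15 over 21. Aldh1l1, an astrocyte enzyme, was at -1.05 ± 0.49 without overlap and the myelin gene Mobp at -1.39 ± 0.75.

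Macrophage genes had no stable direction. Of 25 tested 0 passed and 0 reached an unadjusted p under 0.05, 21 were above 0 and the median was 0.12, but the pair medians of 0.54, 0.18 and -0.27 differed in sign. The median was 0.01 without P32 replicate 2, -0.07 without P32 replicate 1 and 0.33 without P32 replicate 3. The lysosomal marker Cd68 was at 0.2 ± 0.31, the leukocyte membrane protein gene Laptm5 at 0.42 ± 0.43 and the lectin gene Lgals3 at 0.51 ± 0.56. Complement genes (22) had a median of 0.23 with 15 above 0 and C1qb at 0.28 ± 0.41. Their pair medians were 0.1, 0.25 and -0.09, and the list median was 0.08 without P32 replicate 2 and 0.04 without P32 replicate 1 or P60 replicate 2. Class II presentation (13) had a median of 0.02, which was -0.01 with quantile normalization and with median centring, and its chaperone Cd74 was at 0.3 ± 0.47. Class I presentation (24) had a median of -0.12, and the interferon response (32) one of -0.18 with 22 below 0. Oas1a and Oasl2, antiviral oligoadenylate synthetase genes, were at -0.89 ± 0.65 and -0.71 ± 0.55, and the groups of Oasl2 did not overlap. Chemokines and cytokines (24) had a median of 0, with 1 gene at an unadjusted p under 0.05, the eosinophil attractant Ccl11, which had log2 levels of 12.54, 10.58 and 11.54 at P60 and of 11.53, 8.35 and 9.67 at P32 (1.71 ± 0.7). B and plasma cell genes (6) had a median of 0.17 and 1 at such a p, Blk (-0.94 ± 0.43). T and NK cell genes (5) had a median of 0.03, which was -0.13 with quantile normalization. Beside the counts of these lists, 0.609% of all genes were higher and 0.679% lower at an unadjusted p under 0.05, and 59.7% were above 0.

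The remaining lists held few genes at an unadjusted p under 0.05, where the share over all genes was 1.29%, and no gene that passed. The cell cycle list (28 tested, median -0.15) had Cdca3, a mitotic entry factor, at -1.15 ± 0.5. The supporting and epithelial list (13, median -0.2) had Cldn9. The acute phase and coagulation list (16, median 0.09) had F13a1, and the apoptosis list (34, median 0.17, but -0.09 without P32 replicate 2) had Gadd45a. None was in the lists of hair cells (6, median 0.04), stria vascularis (7, median -0.02), skeletal muscle and tendon (10, median 0), matrix remodelling (18, median -0.08), growth factor and retinoid signals (21, median -0.05), heat shock and protein stress (34, median 0.2), oxidative phosphorylation (39, median 0.08), lysosome (47, median 0.06) or cytosolic ribosome (56, median 0.15). Ddit4, a stress-induced inhibitor of growth signalling in the heat shock list, did not overlap, at 1.14 ± 0.7, with 9.83 in P60 replicate 2 and 8.37 and 8.2 in the others. Basement membrane had 3 tested genes, too few for a median to be read. Without P32 replicate 2 the median was 0.03 for the ribosome list and -0.01 for the heat shock list. With each of the 6 samples left out in turn, the median kept its sign for 15 of the 40 lists. These were injury, immediate early, complement, endothelial, ribosome and acute phase above 0, and red cell, bone, neutrophil, interferon, class I, supporting, cell cycle, cholesterol and growth factor below 0.

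**Figure D5:**
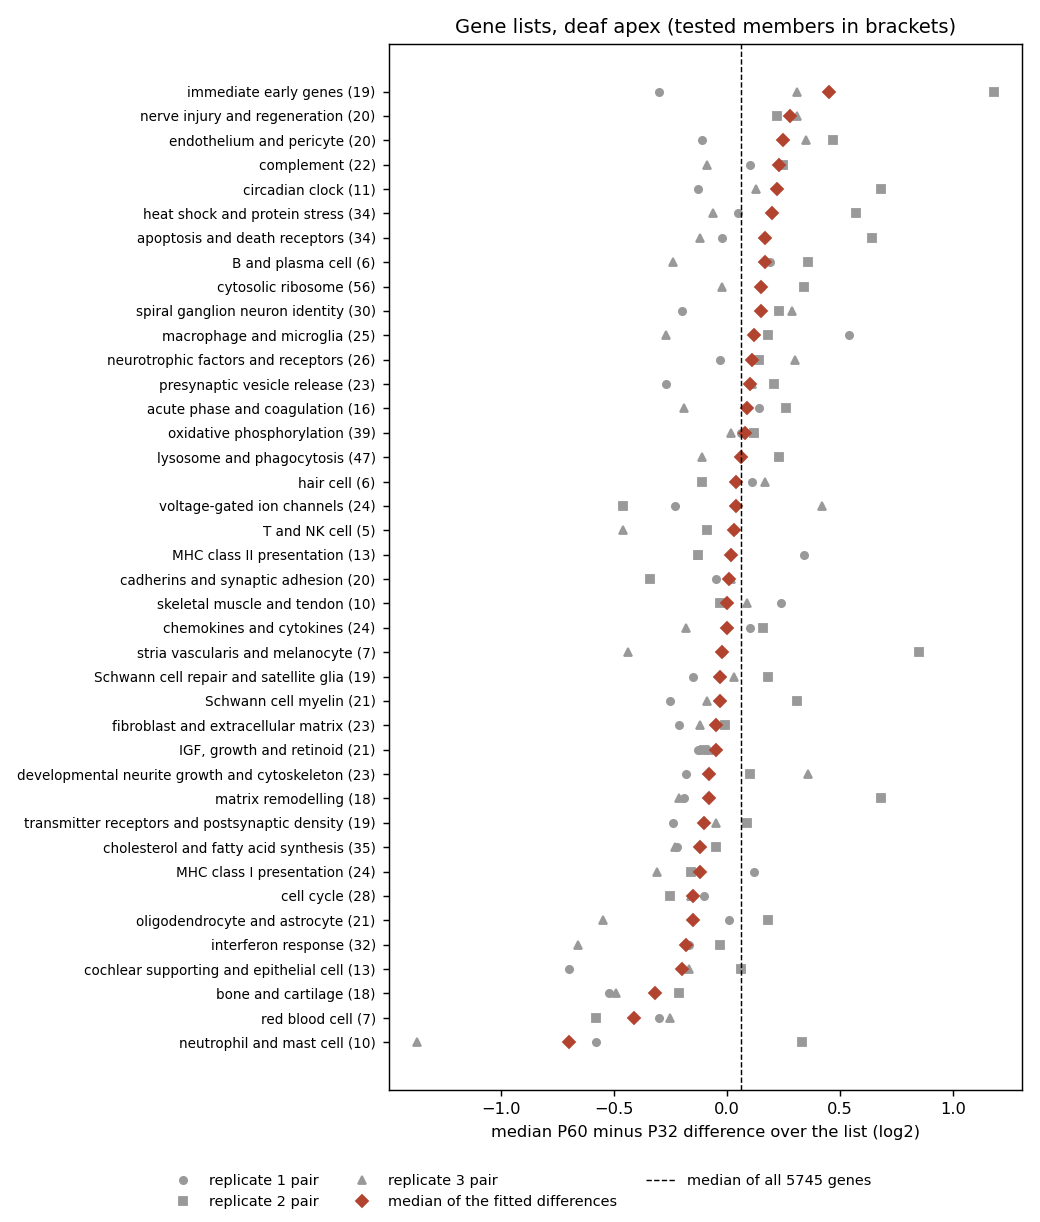
For 40 gene lists with at least 5 tested members (number in brackets), red diamonds give the median of the fitted P60 minus P32 log2 differences in deaf apex, and grey symbols give the median difference of each same-numbered pair; the dashed line is the median of all 5745 genes, 0.06. The injury list has its 3 pairs close together above the line, the red cell and bone lists have all 3 pairs below it, and many other lists have pairs on both sides.

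Whether age had another effect in hearing rats was tested as the difference between the deaf apex and hearing apex age differences. It called 0 of 5745 genes (0%), with a smallest adjusted p of 1 and 101 genes at an unadjusted p under 0.05 (1.76%). Single samples moved this count: it was 36 without P32 hearing apex replicate 1, 276 without replicate 2 and 201 without replicate 3 of that group, 40 and 175 without P32 deaf apex replicates 1 and 3, and 167 without P60 deaf apex replicate 1. With the replicate block it was 195. In hearing apex itself P60 against P32 called 0 genes, with 320 at an unadjusted p under 0.05 (5.57%). The smallest p was that of Slc22a8, an organic anion transporter of meninges and choroid plexus, at 0.11 ± 0.31 in deaf apex and -1.72 ± 0.31 in hearing apex, a difference of 1.83 ± 0.44 (adjusted p 1, limma). Next were Calb1 (1.64 and -2.26), Asgr1, a lectin receptor (0.94 and -1.14), Ntsr2, a neurotensin receptor of glia (0.09 and -2.17), Fabp7, a fatty acid carrier of glia (-0.1 and -1.99), Slc6a20a, a proline transporter (0.19 and -1.39), Gadd45a (0.69 and -0.43) and the chemokine Cxcl14 (0.52 and -2.1), each given for deaf apex and then hearing apex. In all 8 deaf apex was above hearing apex with all samples in the fit. Without P32 hearing apex replicate 1 the hearing apex differences were -1.28 for Slc22a8, -1.1 for Calb1, -0.47 for Asgr1, -1.46 for Ntsr2, -1.81 for Fabp7, -0.95 for Slc6a20a, -0.21 for Gadd45a and -1.13 for Cxcl14. The deaf minus hearing difference was 3.9 ± 1.12 for Calb1, 1.12 ± 0.35 for Gadd45a and 2.62 ± 0.83 for Cxcl14. Without that sample it was 1.39 ± 0.38 for Slc22a8, 2.74 ± 0.93 for Calb1, 1.41 ± 0.47 for Asgr1, 1.55 ± 0.54 for Ntsr2, 1.71 ± 0.62 for Fabp7, 1.13 ± 0.43 for Slc6a20a, 0.91 ± 0.35 for Gadd45a and 1.65 ± 0.62 for Cxcl14, and 0 genes passed.

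For the injury genes the hearing apex differences were negative. They were -0.44 ± 0.7 for Atf3, -0.92 ± 0.79 for Ucn2 and -0.73 ± 0.69 for Bdnf. Gpr83 lay below the dim-end level of 5.96 in every hearing apex sample but P32 replicate 1, so its difference there is not read. The deaf minus hearing difference was 2.3 ± 0.99 for Atf3, 2.13 ± 1.12 for Ucn2 and 2.24 ± 0.98 for Bdnf, with an adjusted p of 1 in limma for all 3. These rested in part on P32 hearing apex replicate 1. Without it the hearing apex differences were 0.74 for Atf3, 0.6 for Ucn2 and -0.07 for Bdnf, so that the sign turned for Atf3 and Ucn2. The deaf minus hearing differences were then 1.12 ± 0.73 for Atf3, 0.61 ± 0.65 for Ucn2 and 1.58 ± 0.97 for Bdnf, again with an adjusted p of 1. The injury list had a median of -0.51 in hearing apex, and of -0.24 without that sample. The macrophage list, at 0.12 in deaf apex, had -0.86 in hearing apex and -0.07 without that sample.

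Against deaf base the test of the age difference called 0 genes (0%), with a smallest adjusted p of 0.999 and 33 genes at an unadjusted p under 0.05 (0.574%). That count was 135 with the replicate block and 391 with a random block for apex and base of one number, whose estimated correlation was 0.629. With 1 sample left out it ran from 7, without P60 deaf apex replicate 3 or P60 deaf base replicate 2, to 150, without P32 deaf base replicate 1, and 0 genes passed in each. In deaf base P60 against P32 had 283 genes at an unadjusted p under 0.05 (4.93%). The smallest p of the difference was that of Fgf18, a growth factor of bone and brain, which was at 0.51 ± 0.28 in deaf apex and at -0.86 ± 0.28 in deaf base, a difference of 1.37 ± 0.39 (adjusted p 0.999, limma). Rgs7bp, which anchors neuronal signalling regulators, was at -0.2 in deaf apex and -1.0 in deaf base, a difference of 0.8 ± 0.28. Lurap1l was at 0.2 and -0.81 and Fxyd7 at 1.26 and 0.07, with differences of 1.01 ± 0.37 and 1.19 ± 0.46. Btg2 was at 0.51 and -0.62 and Fst at 0.01 and -1.15, with differences of 1.13 ± 0.44 and 1.16 ± 0.46. In the other direction, Pdk4 was at -0.53 and 1.46 and Zc3hav1 at -0.25 and 1.03. Their differences were -1.99 ± 0.77 and -1.28 ± 0.5. Atf3 was at 1.86 in deaf apex and at 2.43 in deaf base, Gpr83 at 1.76 and 1.96, Gadd45a at 0.69 and 0.6 and Ucn2 at 1.21 and 1.68, while Bdnf was at 1.51 and -0.01, a difference of 1.52 ± 0.98. The injury list had a median of 0.28 in deaf apex and of 0.27 in deaf base. Across genes the age differences of deaf apex correlated with those of deaf base at 0.46 and with those of hearing apex at 0.32, which is a description, since genes are not independent replicates and these groups share the platform term.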

How the data were processed

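Spiral ganglion RNA was amplified, labelled with Cy3 and hybridised to NimbleGen arrays, per the labels' protocols. The deposited values are intensities that the authors normalized with RMA (version not given in the sources used here) and averaged over technical replicates, per the labels. They are on a linear scale and not the log2 scale assumed in the design, so log2 of the deposited intensities was taken here. Of 14138 transcripts 5823 could be named, giving 5745 genes (61 with more than 1 transcript), and the 8315 others are unnamed here. The labels do not say whether both platforms were normalized together.

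limma 3.58.1 in R 4.3.3 was fitted to all 24 samples with 8 group means and platform as an additive term (15 residual degrees of freedom). This fit treats apex and base of one number as independent, though they may share animals and had an estimated correlation of 0.629. The 15 degrees of freedom may therefore overstate the information behind its SEs and p-values. P-values are two-sided and Benjamini-Hochberg adjusted over all 5745 genes, with a threshold of 0.05. The age difference in deaf apex, and its difference from that in hearing apex and in deaf base, were tested. The code was tested on simulated data. Same-numbered P60 and P32 samples deviated together from their group means. The correlations over genes were r = 0.759, 0.375 and 0.565, and 0.096, 0.172 and 0.523 after the platform term. By those without that term the numbers were taken to pair the samples. After it, pair 1 fell short of the minimum of 0.1, and P60 replicate 2 with P32 replicate 1 reached 0.329. The pairing is therefore uncertain, and the main fit does not use it.

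The genes named are drawn from the 15 with the smallest p in each direction, up to 3 with the smallest p in each gene list, the 8 with the smallest p in each difference of age differences, and a set of genes always named. Dnase1, Ankrd1, Junb, Hbb, Hba-a2, Bpgm, Np4 and Stmn2 were added after their values were seen. The comparison, its lists and this rule were chosen with earlier results of these data known. The alternatives were the replicate block, platform term, samples in the fit, normalization, pseudocount (64), filter on low values, rows per gene, the platform tables, array weights, robust empirical Bayes and leaving out samples. Promoter sequences are from RefSeq (GRCr8). Some genes are not reported here.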

Additional observations from a re-analysis of the deposited data

How the results depend on the processing

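The count of genes called between P60 and P32 deaf apex, 0, was 2 with the platform tables, 41 with array weights (17 higher at P60 and 24 lower) and 2 without P32 hearing apex replicate 1. The weights ran from 0.22 to 24.58 over arrays, and their estimation did not reach convergence. With the replicate block the count was 0 in all samples (213 at an unadjusted p under 0.05) and 0 in the compared samples alone (176), and it changed no call. Leaving out each of the 6 samples in turn gave 0 to 0 genes, with 66 to 143 at an unadjusted p under 0.05. Both differences of age differences called 0 genes under every alternative run.

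Of 2016 values of single genes under the alternatives, 1973 kept direction and side of the threshold, 25 passed it and 18 changed sign. With array weights the differences of Slc22a8, Nefl and Fabp7 were -0.11, -0.10 and 0.35. On the 16-sample platform alone Bpgm was at -0.02 and Ntsr2 at -0.33, and Bpgm was at -0.02 with quantile normalization and at -0.03 with median centring. With 1 deaf apex sample left out, the differences ran from -0.08 to 0.41 for Slc22a8, -0.04 to 0.33 for Cd68, -0.02 to 0.5 for C1qb, -0.30 to 0.27 for Ntsr2, -0.05 to 0.04 for Bpgm, -0.56 to 1.19 for Nefh and -0.30 to 0.11 for Fabp7. The cause was not tested for any of these. Of 919 list medians 868 moved by less than the spread between replicates and 51 by more. With the dimmest genes left out, no T and NK cell gene remained and that list has no value.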

Other observations

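The platform tables name 9621 genes, and 2 that the whole-series table does not hold passed there in limma. Nmur1, a neuromedin U receptor, had log2 levels of 4.82, 5.92 and 6.64 at P60, against 6.79, 8.26 and 8.53 at P32, with no overlap and a difference of -2.06 ± 0.31 (adjusted p 0.0267). Fgf5, a fibroblast growth factor, had log2 levels of 8.37, 8.4 and 7.35 at P60, against 5.76, 4.57 and 5.14 at P32, with no overlap (adjusted p 0.0267). All 3 P32 levels of Fgf5 and 2 of the 3 P60 levels of Nmur1 lie below the 95th percentile of the olfactory and vomeronasal receptor transcripts, 5.96. The size of the Nmur1 difference is therefore uncertain, and no size is given for Fgf5.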
